A study of Mus musculus with 10 samples.

Results

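The genes described here are 7 genes of peripheral nerve and its glia, chosen by name: Th, Sox10, S100b, Mbp, Ngfr, Cdh19 and Ncam1. Of these 7 genes, 6 were found in the expression table of 32889 genes, and all 6 passed the filter on low counts that left 19676 genes for testing. Th, which encodes the rate-limiting enzyme of noradrenaline synthesis, was not analysed here. The 6 remaining genes were Sox10, a transcription factor of the neural crest and Schwann lineage, S100b, a calcium-binding protein, Mbp, a structural protein of compact myelin, the adhesion molecules Cdh19 and Ncam1, and Ngfr, the low-affinity neurotrophin receptor.

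Brown adipose tissue is densely supplied by sympathetic axons, whose noradrenaline drives heat production. The cell bodies of those neurones lie in ganglia outside the fat, so RNA extracted from the tissue holds the transcripts of the Schwann cells around the axons more fully than those of the neurones. Schwann cells are glia of the peripheral nerve that either wrap large axons in myelin or ensheath bundles of small axons without it, and Sox10 is needed for both. None of the 6 genes is made by Schwann cells alone. In mice S100b is also made by adipocytes, the Mbp locus also gives rise to transcripts in blood cells, and Ncam1 is also made by muscle.

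Total RNA was sequenced from brown adipose tissue of wild-type C57BL/6J mice in 10 libraries. Obesity-prone mice on a high-fat diet gave 3 libraries, obesity-resistant mice on the same diet gave 3, and control mice on regular chow gave 4. Sex, age, the length of feeding and the rule that separated prone from resistant mice were not given in the sources used here. The labels do not state whether each library was a separate animal, and p-values therefore measure only the spread between these samples, which may be technical.

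Total counts lay between 35583997 and 37327770 per library, so depth differed little. Ucp1, which encodes the uncoupling protein that defines brown fat, reached 2882 to 8461 CPM (counts scaled to the normalised library size) in obesity-prone, 8653 to 9753 CPM in obesity-resistant and 6240 to 10270 CPM in control libraries. Obesity-prone library 3 held the lowest Ucp1 level, and it lay at one end of the first principal component (-74.6, where the other libraries lay between -37.5 and 55.6). Control library 4 lay at -11.1 on that component, apart from the other 3 control libraries at 34.9 to 55.6. Results for the 6 genes are therefore also given without these 2 libraries. The summed level of the skeletal muscle list ran from 1.77 to 74.1 CPM in obesity-prone, from 3.20 to 764 CPM in obesity-resistant and from 1.42 to 905 CPM in control libraries, so the amount of muscle RNA differed widely within groups.

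Promoter sequence was at hand in the RefSeq table of GRCm38.p6 for 2 of the 7 genes, S100b and Ngfr, which were also the genes with the largest differences from control in either direction. Each stretch runs from 250 bases before the annotated start to 50 bases after it, 5′ to 3′ on the gene's own strand. They are shown so that the sequence that starts each transcript stands beside its levels. The S100b stretch is chr10:76253586-76253885 on the plus strand, with CCAAT in capitals on either strand (ATTGG where it reads on the other strand). The Ngfr stretch is chr11:95587649-95587948 on the minus strand, with GGGCGG in capitals on either strand (CCGCCC where it reads on the other strand).
S100b: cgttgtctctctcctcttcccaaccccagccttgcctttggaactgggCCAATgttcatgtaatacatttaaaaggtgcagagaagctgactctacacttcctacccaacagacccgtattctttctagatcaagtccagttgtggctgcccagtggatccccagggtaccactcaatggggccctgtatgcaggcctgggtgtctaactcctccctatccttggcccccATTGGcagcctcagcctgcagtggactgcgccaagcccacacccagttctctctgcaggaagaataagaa
Ngfr: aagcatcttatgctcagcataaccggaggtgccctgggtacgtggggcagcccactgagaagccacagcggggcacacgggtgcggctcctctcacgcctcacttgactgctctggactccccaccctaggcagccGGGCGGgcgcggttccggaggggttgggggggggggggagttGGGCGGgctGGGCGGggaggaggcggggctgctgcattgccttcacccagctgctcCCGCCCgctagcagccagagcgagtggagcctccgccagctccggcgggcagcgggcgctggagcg
CCAAT, the box named for its letters, occurred 2 times in the S100b stretch, beginning at -202 and, on the other strand, at -20. It occurred in 37.9% of 27025 mouse promoter stretches of 300 bases. GGGCGG, the GC box, occurred 4 times in the Ngfr stretch, beginning at -114, -72, -63 and, on the other strand, at -16, and it occurred in 35.9% of all stretches. Neither stretch held ACAAAG or ACAATG, a pair of short cores that SOX factors recognise, on either strand, and 28.8% of all stretches held at least one of them. No match in capitals overlaps another, and such matches are descriptions of letters only.

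S100b was the most abundant of the 6 transcripts and Ngfr the least, on the length-corrected FPKM scale (fragments per kilobase of transcript, scaled to library depth). S100b (gene identifier 20203, chromosome 10, 76253836 to 76261319) averaged 29.7 ± 9.45 FPKM (SD, n = 10 libraries). Mbp (17196, chromosome 18, 82475091 to 82585637) averaged 11.6 ± 2.40 FPKM and Cdh19 (227485, chromosome 1, 110888002 to 110977601) averaged 7.62 ± 0.978 FPKM. Below them stood 3 genes near or under 1 FPKM. Sox10 (20665, chromosome 15, 79154913 to 79164490) averaged 0.894 ± 0.265 FPKM, Ncam1 (17967, chromosome 9, 49502129 to 49799393) 0.847 ± 0.117 FPKM and Ngfr (18053, chromosome 11, 95568818 to 95587698) 0.467 ± 0.116 FPKM. The lowest S100b library, at 17.9 FPKM, lay above the highest Mbp library, at 15.3 FPKM, and the lowest Ncam1 library, at 0.690 FPKM, above the highest Ngfr library, at 0.650 FPKM. The ranges of Mbp and Cdh19 overlapped, as did those of Sox10 and Ncam1. All 6 are annotated as protein-coding, and the positions are of the gene bodies on GRCm38.p6.

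Counting depth also differed widely between the genes. Ngfr was measured with a mean of 57.6 counts per library and Sox10 with 87.8, against 1590 counts for Mbp and 1750 for S100b. Across the 10 libraries the highest CPM was 2.75 times the lowest for Sox10, 2.53 times for S100b and 2.32 times for Ngfr, but 1.55 times for Mbp. Whether counting used the strand is not stated, so reads from any transcript sequence that overlapping genes share may not be told apart. The overlaps given here are of whole gene spans, introns included, and how much of them is transcript sequence was not examined. Mbp overlaps the pseudogene Rpl21-ps8 on the other strand over 547 bases and the lncRNA Gm52337, and Ncam1 overlaps the lncRNA Gm11149 on the other strand over 49738 bases.

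**Figure D1:**
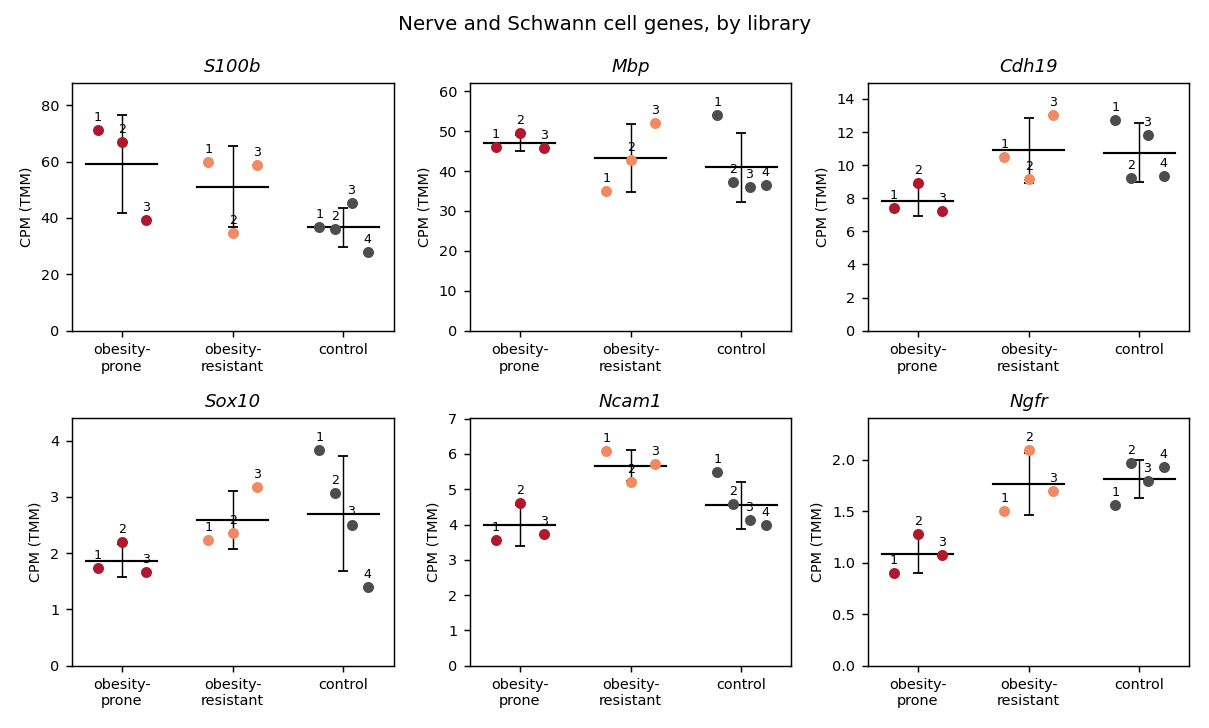
Level of each of the 6 genes in CPM (TMM-normalised) in each library, with obesity-prone, obesity-resistant and control libraries from left to right. Points are libraries with their replicate number, lines are group means and bars are 1 SD. All 3 obesity-prone libraries lie below every other library for Ngfr and Cdh19, while S100b reaches its highest values, 71.1 and 67.1 CPM, in obesity-prone libraries 1 and 2.

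In obesity-prone mice, the transcript levels of the 6 genes did not move as one. Ngfr and Cdh19 were lowest in the 3 obesity-prone libraries, S100b was highest in 2 of them, Mbp differed little, and in no comparison did any of the 6 genes pass an adjusted p of 0.05 in edgeR's quasi-likelihood test. The background for that threshold was 7% of all genes in obesity-prone against control, 0.142% in obesity-resistant against control and 0% in obesity-prone against obesity-resistant. In bulk tissue, fewer cells of a type and less RNA per cell cannot be told apart.

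Sox10, the lineage factor, had 1.73, 2.203 and 1.66 CPM in obesity-prone, 2.22, 2.36 and 3.18 CPM in obesity-resistant and 3.83, 3.07, 2.51 and 1.39 CPM in control libraries. Its level thus ranged more widely among the controls than across the other libraries, with control library 1 highest and control library 4 lowest of all. The obesity-prone libraries lay below the 3 obesity-resistant ones, although by a narrow margin, and inside the control range. Obesity-prone against control gave a log2 fold change of -0.53 ± 0.306 (SE, 95% interval -1.21 to 0.145, adjusted p = 0.278). Without control library 1 it was -0.32 (adjusted p = 0.546), without control library 4 it was -0.75 (adjusted p = 0.0520), and without obesity-prone library 3 it was -0.46 (adjusted p = 0.475). In obesity-resistant against control it was -0.06 ± 0.300 (adjusted p = 0.943), and in obesity-prone against obesity-resistant -0.47 ± 0.324 (adjusted p = 0.491).

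S100b, a calcium-binding protein that brown adipocytes of mice release and that promotes the growth of sympathetic axons, had 71.1, 67.1 and 39.1 CPM in obesity-prone libraries. In obesity-resistant libraries it had 59.8, 34.6 and 59.0 CPM, and in controls 37.0, 36.2, 45.3 and 28.1 CPM. Thus 4 of the 6 libraries of mice on a high-fat diet lay above every control, whereas obesity-prone library 3 and obesity-resistant library 2 lay among the controls, so the groups overlapped. The group means were 59.1 ± 17.4 CPM in obesity-prone (SD, n = 3), 51.1 ± 14.3 CPM in obesity-resistant (n = 3) and 36.6 ± 7.02 CPM in control mice (n = 4). The log2 fold change was 0.69 ± 0.248 (95% interval 0.140 to 1.24, adjusted p = 0.106) in obesity-prone and 0.48 ± 0.248 (adjusted p = 0.340) in obesity-resistant mice, each against control. With each library left out in turn, obesity-prone against control ran from 0.54 to 0.92, the highest without obesity-prone library 3 (adjusted p = 0.0663). Over all 22 alternatives its adjusted p ran from 0.0519 to 0.264.

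Mbp, which compacts the myelin sheath, had 46.0, 49.5 and 45.8 CPM in obesity-prone, 34.9, 42.7 and 52.1 CPM in obesity-resistant and 54.0, 37.2, 36.1 and 36.4 CPM in control libraries. Control library 1 stood far above the other 3 controls, which lay between 36.1 and 37.2 CPM, and the groups overlapped. Against control, the log2 fold change was 0.20 ± 0.166 (95% interval -0.167 to 0.570, adjusted p = 0.454) in obesity-prone and 0.08 ± 0.166 (adjusted p = 0.844) in obesity-resistant mice. Without control library 1 the obesity-prone value was 0.36 (adjusted p = 0.151). Relative to its mean, Mbp had the narrowest spread of the 6 genes in obesity-prone mice, at 47.1 ± 2.08 CPM (SD, n = 3).

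Cdh19, a cadherin of Schwann cell precursors and Schwann cells, had 7.43, 8.92 and 7.24 CPM in obesity-prone libraries. In obesity-resistant libraries it had 10.5, 9.16 and 13.02 CPM, and in controls 12.7, 9.21, 11.8 and 9.32 CPM. Every obesity-prone library lay below every other library, though obesity-prone library 2 lay close to the lowest of them. The log2 fold change was -0.45 ± 0.164 (95% interval -0.817 to -0.0888, adjusted p = 0.108) against control and -0.47 ± 0.174 (adjusted p = 0.271) against obesity-resistant mice. Obesity-resistant and control mice had nearly the same mean, with 10.9 ± 1.96 and 10.8 ± 1.77 CPM (SD, n = 3 and 4). On the FPKM scale obesity-prone library 2, at 7.58 FPKM, lay above control library 2, at 7.28 FPKM, so the separation from control rested on the scale used.

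Ncam1, an adhesion molecule of axons and non-myelinating Schwann cells, had 3.56, 4.62 and 3.74 CPM in obesity-prone, 6.09, 5.21 and 5.70 CPM in obesity-resistant and 5.48, 4.58, 4.13 and 3.99 CPM in control libraries. All 3 obesity-resistant libraries lay above all 3 obesity-prone ones, and both groups overlapped the controls. The log2 fold change was -0.51 ± 0.165 (95% interval -0.877 to -0.147, adjusted p = 0.244) in obesity-prone against obesity-resistant mice. Against control it was -0.19 ± 0.155 in obesity-prone (adjusted p = 0.440, and -0.09 without control library 1) and 0.32 ± 0.153 in obesity-resistant mice (adjusted p = 0.304).

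Ngfr, the p75 receptor that binds all neurotrophins and marks immature, non-myelinating and injury-responding Schwann cells, had 0.903, 1.28 and 1.08 CPM in obesity-prone libraries. It had 1.501, 2.095 and 1.70 CPM in obesity-resistant and 1.57, 1.97, 1.80 and 1.93 CPM in control libraries. The 3 obesity-prone libraries were the 3 lowest of the 10, without overlap with either group on the CPM or the FPKM scale, whereas the obesity-resistant libraries spread across the control range. The underlying counts were small, with 35, 47 and 41 in obesity-prone, 54, 78 and 62 in obesity-resistant and 56, 68, 63 and 72 in control libraries. The log2 fold change was -0.74 ± 0.199 (95% interval -1.18 to -0.297, adjusted p = 0.0520) against control and -0.70 ± 0.210 (95% interval -1.17 to -0.233, adjusted p = 0.234) against obesity-resistant mice. Against control it passed the threshold in DESeq2 (-0.74, adjusted p = 0.0189), with a stricter filter of at least 1 CPM in 3 libraries (-0.73, adjusted p = 0.0464) and without obesity-prone library 2 (-0.87, adjusted p = 0.0387). Over all 22 alternatives the adjusted p ran from 0.0189 to 0.128. With obesity-prone library 3 and control library 4 both left out it was -0.70 (adjusted p = 0.103). In obesity-resistant against control it was -0.04 ± 0.193 (95% interval -0.467 to 0.389, adjusted p = 0.942).

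**Figure D2:**
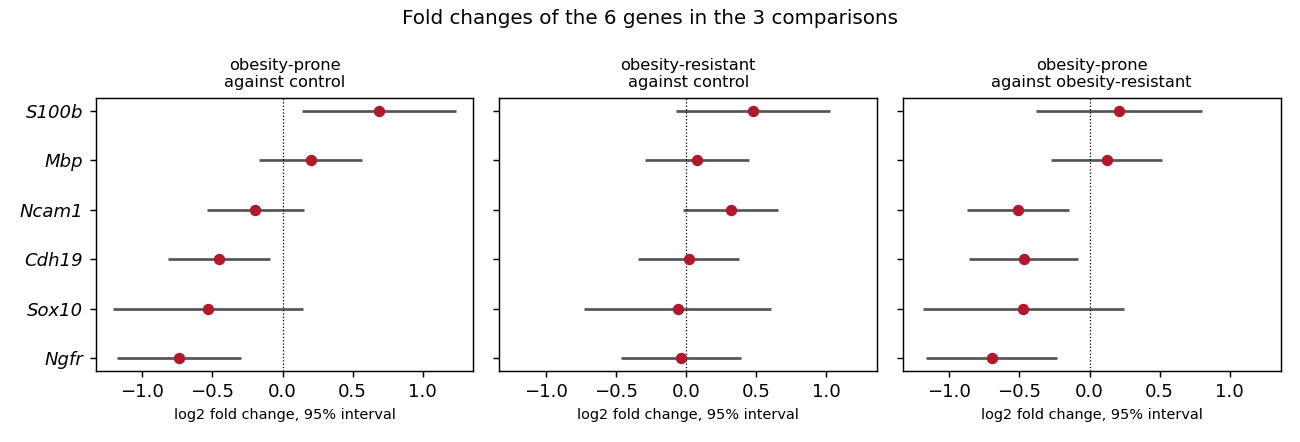
Log2 fold change of each gene in the 3 comparisons (points) with its 95% interval from edgeR's quasi-likelihood fit (lines), where the dotted line marks no difference. In obesity-prone against control, the interval lies above 0 for S100b and below 0 for Cdh19 and Ngfr, and in obesity-resistant against control every interval includes 0.

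Read against all genes tested, the counts were as follows. At an unadjusted p below 0.05, 3 of the 6 genes differed in obesity-prone against control (1 higher and 2 lower), where 28.1% of all genes did (14.9% higher and 13.2% lower). The counts at that p were 0 of 6 in obesity-resistant against control, where 18% of all genes did, and 3 of 6 in obesity-prone against obesity-resistant, where 15.4% of all genes did. All 3 of the last were lower in obesity-prone mice, a direction that 5.61% of all genes showed. Of the 6 estimates 4, 2 and 4 lay below 0 in the 3 comparisons, where 49.4%, 50.9% and 51.1% of all genes did. Without obesity-prone library 3 and control library 4, obesity-prone against control gave -0.67 for Sox10, 0.81 for S100b, 0.17 for Mbp, -0.46 for Cdh19 and -0.21 for Ncam1 (adjusted p = 0.114, 0.0519, 0.623, 0.140 and 0.492). DESeq2 called 1, 0 and 0 of the 6 genes in the 3 comparisons, and limma on FPKM called 0 in each. Groups did not overlap for 2 of 6 genes in obesity-prone against control, both lower (background 20.3%, and 10.6% for lower), and for 0 of 6 in obesity-resistant against control (background 20.2%). In obesity-prone against obesity-resistant, 4 of 6 genes did not overlap, all lower (background 19.7%, and 9.75% for lower), namely Sox10, Ngfr, Cdh19 and Ncam1. The median log2 fold change of the 6 genes was -0.32, 0.05 and -0.47 in the 3 comparisons, and that of all genes tested was 0.00466, -0.00611 and -0.0075. The comparisons share libraries, so these values are not independent of each other, and with 6 chosen genes they are descriptions.

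Other cell types' markers differed between libraries as well. The summed level of the macrophage list was 195 to 559 CPM in obesity-prone, 136 to 163 CPM in obesity-resistant and 133 to 239 CPM in control libraries, and 2 of its 10 genes, Lyz2 and Tyrobp, rose in obesity-prone against control (log2 fold change 1.29 and 1.45, adjusted p = 0.0331 and 0.0399). The 8 brown adipocyte markers summed to 3925 to 10930 CPM in obesity-prone, 11500 to 12540 CPM in obesity-resistant and 8644 to 12580 CPM in control libraries. Most of that sum was Ucp1, with group means of 6053, 9182 and 8667 CPM. In obesity-prone against control 0 of the 8 passed, and Ucp1 itself stood at -0.52 (adjusted p = 0.323). For fibroblast and progenitor markers the sums were 728 to 1709 CPM in obesity-prone, 462 to 626 CPM in obesity-resistant and 509 to 887 CPM in control libraries, but 4 of the 7 estimates lay below 0 in obesity-prone against control (median -0.05). The highest estimates in that list were those of the collagen genes Col1a1 (1.18, adjusted p = 0.0695) and Col3a1 (0.94, adjusted p = 0.103). Of 6 general and white adipocyte markers, Lep and Npr3 rose (3.72 and 1.86, adjusted p = 0.0490 and 0.0433) and Fabp4 fell (-0.52, adjusted p = 0.0471) in obesity-prone against control. Beside these list counts, 7% of all genes passed in that comparison and 49.4% of all estimates lay below 0. Erythrocyte markers summed to 2412 to 22140 CPM in obesity-prone, with library 3 highest, 707 to 2541 CPM in obesity-resistant and 820 to 6148 CPM in control libraries, with library 4 highest. Their part in the levels of the 6 genes was not tested. With the skeletal muscle score as a covariate, the obesity-prone against control values were -0.72 for Ngfr (adjusted p = 0.0868), -0.46 for Cdh19 (adjusted p = 0.147) and 0.70 for S100b (adjusted p = 0.148). Without it the same 3 values were -0.74, -0.45 and 0.69. For Sox10, Mbp and Ncam1 the value with this covariate is given only inside a range over several settings. Over the alternatives other than single libraries left out, this covariate among them, Sox10 ran from -0.75 to -0.19. Mbp ran from 0.15 to 0.21 and Ncam1, also made by muscle, from -0.25 to -0.03.

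Across the 10 libraries, the 3 highest Pearson coefficients among the 15 pairs of genes, without centring, were those among Sox10, Cdh19 and Ncam1. Sox10 and Cdh19 had a Pearson r of 0.734 (permutation p = 0.0161, adjusted over 15 pairs 0.187) and a Spearman rho of 0.709 (permutation p = 0.0263, adjusted 0.197). Leaving out the 2 libraries farthest from the median of Sox10 gave r = 0.793, and centring each group on its own mean gave 0.636. Sox10 and Ncam1 had r = 0.669 (permutation p = 0.0375, adjusted 0.187) and rho = 0.636 (permutation p = 0.0532, adjusted 0.200), with r = 0.608 without the 2 farthest libraries and 0.709 after centring. Cdh19 and Ncam1 had r = 0.700 (permutation p = 0.0269, adjusted 0.187) and rho = 0.661 (permutation p = 0.0441, adjusted 0.200), with r = 0.540 without the 2 farthest libraries and 0.605 after centring. The order of pairs depended on the treatment. After centring, Sox10 and Mbp had 0.685 and Mbp and Cdh19 0.645, against 0.358 and 0.113 without it (permutation p = 0.306 and 0.748, adjusted 0.510 and 0.907; rho = 0.333 and 0.0303, permutation p = 0.350 and 0.947, adjusted 0.657 and 0.947). S100b and Sox10 had r = 0.0443 (permutation p = 0.903, adjusted 0.926; rho = -0.0545, permutation p = 0.892, adjusted 0.947), with 0.420 after centring and -0.205 without the 2 farthest libraries. For S100b and Ngfr, r was -0.620 (permutation p = 0.0584, adjusted 0.219) and rho -0.782 (permutation p = 0.0106, adjusted 0.158), and r was -0.292 without the 2 farthest libraries and -0.468 after centring. None of the 15 pairs passed after adjustment, and libraries of a group share their diet.

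The genes that followed each of the 6 most closely over the 10 libraries were taken among 12479 named protein-coding genes by Pearson r of log2 CPM, as a description. So many genes set against so few libraries yield high coefficients by chance alone. These ranks were not tested and carry little weight. Those for Sox10 were Fam155a (0.938), Zfp536 (0.912) and Siae (0.909), and those for Ncam1 were Rbm12 (0.946), Lgi4 (0.917) and Cadm2 (0.900). Lgi4 is a secreted protein of Schwann cells that promotes myelination. For S100b they were Map1lc3a (0.942), Rala (0.933) and Ugp2 (0.919), none of which is a Schwann cell marker. The nearest to Ngfr were Myo15 (0.935), Flywch1 (0.921) and Sptbn5 (0.918), those to Cdh19 were Epm2aip1 (0.927), Nt5e (0.923) and Plpp6 (0.922), and those to Mbp were Reln (0.919), Mgat3 (0.890) and Shox2 (0.861). After centring each group on its own mean, the coefficients for Ngfr were 0.695, 0.747 and 0.679. For the other genes they then lay between 0.812 and 0.996.

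The surrounding pathways were described with 7 gene lists, which together held 84 tested genes besides the 6. In obesity-prone against control 12 of the 84 changed, 7 higher and 5 lower, which is 14.3% of them against 7% of all genes. The lists were chosen with earlier results of these data known, so such shares are descriptions only. In obesity-resistant against control and in obesity-prone against obesity-resistant 0 of the 84 passed in edgeR's quasi-likelihood test, with 21 (25%) and 24 (28.6%) of them at an unadjusted p below 0.05, against 18% and 15.4% of all genes. DESeq2 called 25, 9 and 6 of the 84 in the 3 comparisons, and 3111, 1142 and 567 of all 19676 genes. The median log2 fold change of the 84 was -0.06, -0.08 and -0.02 in the 3 comparisons.

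Among 20 tested neurotrophic factors, neuregulins and their receptors, Ngfr included, 4 fell in obesity-prone against control and none rose. Of all genes tested, 7% passed in that comparison, higher and lower together. For this list 16 of the 20 estimates lay below 0, where 49.4% of all genes did, and the list median was -0.36. Erbb3, the neuregulin receptor through which axons keep Schwann cells alive, had 4.18, 4.27 and 3.21 CPM in obesity-prone, 4.09, 4.43 and 5.92 CPM in obesity-resistant and 7.55, 6.03, 6.53 and 5.65 CPM in control libraries. All obesity-prone libraries lay below all controls, and the obesity-resistant libraries overlapped both groups. Obesity-prone against control gave a log2 fold change of -0.73 (adjusted p = 0.0397). Erbb4, a neuregulin receptor that also binds Nrg4 from brown adipocytes, had 53.1, 46.6 and 26.4 CPM in obesity-prone, 47.1, 54.3 and 55.6 CPM in obesity-resistant and 89.4, 83.2, 102 and 67.5 CPM in control libraries. Both groups on the high-fat diet lay below every control, and the log2 fold change in obesity-prone against control was -1.03 (adjusted p = 0.0288).

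Ntf3, a neurotrophin that sympathetic neurones depend on, had 28.7, 19.4 and 30.5 CPM in obesity-prone, 31.3, 27.4 and 24.2 CPM in obesity-resistant and 45.1, 44.3, 40.8 and 43.9 CPM in control libraries. The controls lay close together and above all 6 other libraries. Its log2 fold change was -0.73 (adjusted p = 0.0259) in obesity-prone and -0.66 (adjusted p = 0.0850) in obesity-resistant mice against control. Clstn3 is the locus that in mice also encodes the adipocyte protein Clstn3b, which promotes S100b secretion, and the gene-level counts do not separate the transcripts. It had 148, 160 and 112 CPM in obesity-prone, 224, 194 and 183 CPM in obesity-resistant and 200, 237, 235 and 187 CPM in control libraries, so the obesity-prone libraries were the 3 lowest. Its log2 fold change was -0.62 in obesity-prone against control (adjusted p = 0.0354) and -0.10 in obesity-resistant against control (adjusted p = 0.754). Gfra3, a receptor of the GDNF family, missed the threshold at -0.77 (adjusted p = 0.0519). In the other direction Gdnf, from the same list, missed it at 1.44 (adjusted p = 0.0730). Its counts were few, with 33 over the 3 obesity-prone and 15 over the 4 control libraries.

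**Figure D3:**
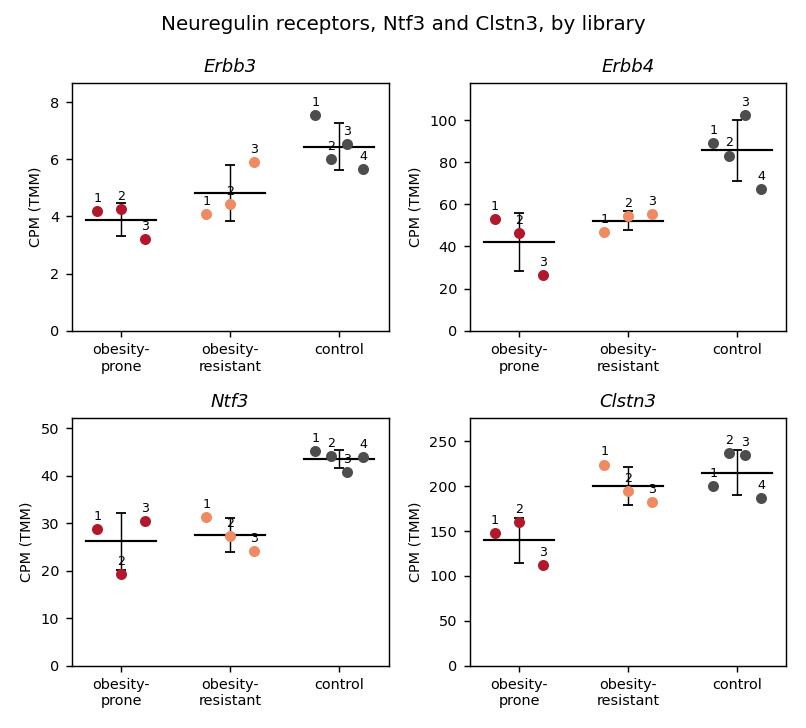
Level of the neuregulin receptors Erbb3 and Erbb4, of Ntf3 and of Clstn3 in CPM (TMM-normalised) in each library, with obesity-prone, obesity-resistant and control libraries from left to right. Points are libraries with their replicate number, lines are group means and bars are 1 SD, and for Ntf3 and Erbb4 both groups on the high-fat diet lie below every control.

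Of 13 tested myelin genes, Mbp included, 2 rose in obesity-prone against control and none fell, where 7% of all genes passed. In this list 7 estimates lay below 0, where 49.4% of all genes did, and the list median was -0.06. Egr2, a transcription factor of myelinating Schwann cells that is also induced early in adipocyte and macrophage differentiation, had 3.71, 3.64 and 10.6 CPM in obesity-prone, 0.667, 2.31 and 4.80 CPM in obesity-resistant and 0.615, 0.898, 0.798 and 2.01 CPM in control libraries. All obesity-prone libraries lay above all controls, and library 3, the one with the highest macrophage sum, was the highest. Egr2 had a log2 fold change of 2.46 in obesity-prone against control (adjusted p = 0.0491), and of 1.76 without that library. Gldn, which clusters sodium channels at nodes of Ranvier, had 32.8, 22.7 and 14.2 CPM in obesity-prone, 29.1, 25.2 and 30.2 CPM in obesity-resistant and 3.47, 8.55, 11.7 and 7.77 CPM in control libraries. Both groups on the high-fat diet lay above every control, with a log2 fold change of 1.56 (adjusted p = 0.0341) in obesity-prone and 1.84 (adjusted p = 0.0699) in obesity-resistant mice.

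The other myelin genes varied by library. Among the 12 described besides Mbp, obesity-prone library 3 was highest for 3 genes (Egr2, Mag and Pmp22) and obesity-prone library 1 for 1 (Gldn). Obesity-resistant library 3 was highest for 3 (Drp2, Fa2h and Ncmap), obesity-resistant library 2 for 2 (Mal and Ugt8a) and control library 1 for 3 (Cldn19, Cnp and Prx). Obesity-resistant library 1 was lowest for 6. Some of these genes had few counts, so which library was highest or lowest for them may be counting noise. Mag, Ncmap and Cldn19 summed to 24, 12 and 17 counts over the 3 obesity-prone libraries. Mbp itself was highest in control library 1 and lowest in obesity-resistant library 1. In obesity-resistant against control, 11 of the 13 myelin estimates lay above 0 (median 0.31), where 50.9% of all genes lay below 0. In obesity-prone against obesity-resistant 9 of 13 lay below 0 (median -0.44), where 51.1% of all genes did. In neither comparison did a gene of the list pass, and 0.142% and 0% of all genes did.

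**Figure D4:**
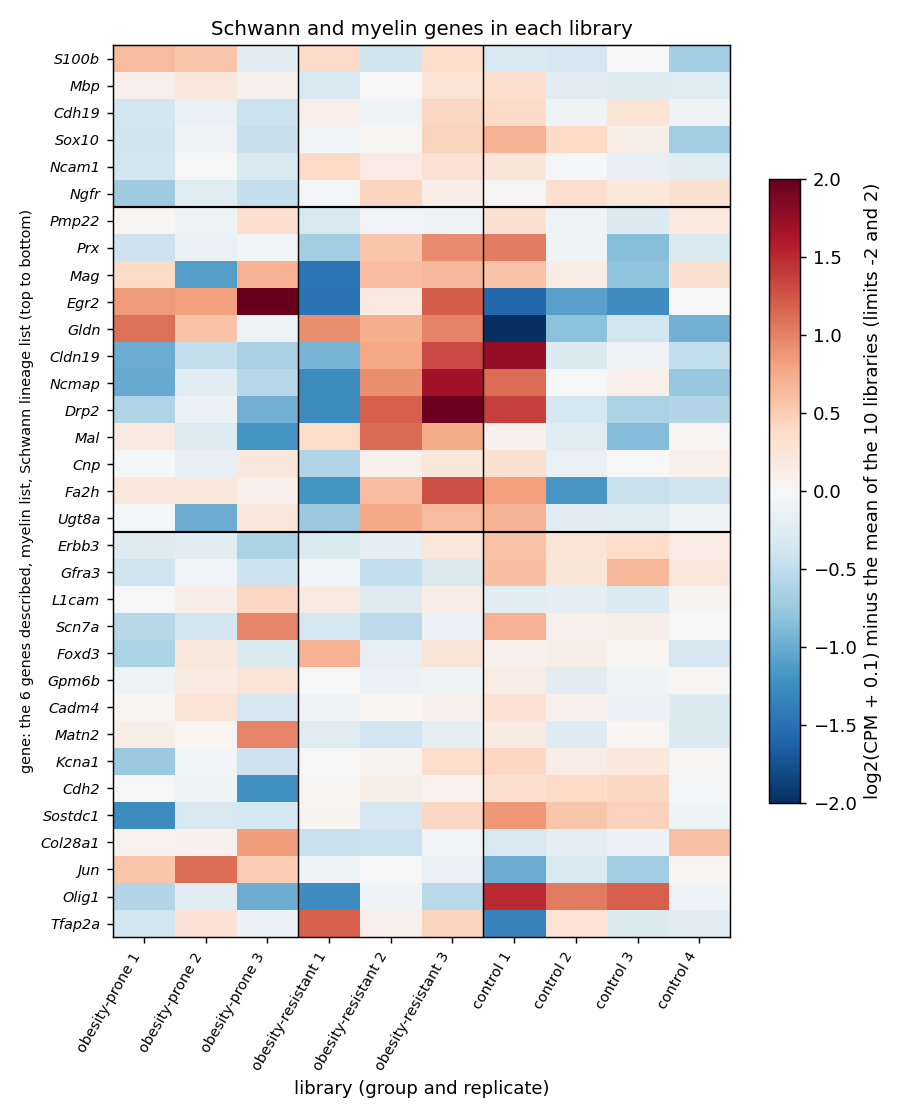
Level of the 6 genes (top block), the 12 other myelin genes described (middle block) and the other tested Schwann lineage genes (bottom block) in each library, as log2(CPM + 0.1) minus the gene's mean over the 10 libraries, with colours limited to -2 and 2. Columns are obesity-prone, obesity-resistant and control libraries from left to right, and obesity-prone library 3, obesity-resistant library 3 and control library 1 are highest for 3 of the 12 other myelin genes each. Some of these genes had few counts, so their colours may show counting noise.

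In the Schwann lineage list, 1 of 20 tested genes rose and 1, Erbb3, fell in obesity-prone against control, where 7% of all genes passed. For this list 12 of 20 estimates lay below 0 (median -0.20), where 49.4% of all genes did. The list includes 5 of the 6 genes described above. Jun, a transcription factor that drives the repair state of Schwann cells and is made by nearly every cell type under stress, had 105, 157 and 101 CPM in obesity-prone, 67.8, 72.5 and 64.6 CPM in obesity-resistant and 36.1, 58.4, 44.4 and 74.1 CPM in control libraries. The obesity-prone libraries were the 3 highest, and the log2 fold change was 1.19 (adjusted p = 0.0227). In the nerve sheath list, Cldn1, a tight junction protein of the perineurium and of other barriers, fell with 1.88, 2.23 and 0.684 CPM in obesity-prone, 7.54, 6.26 and 4.17 CPM in obesity-resistant and 12.1, 23.2, 15.8 and 15.5 CPM in control libraries (log2 fold change in obesity-prone against control -3.38, adjusted p = 0.00654). For Cldn1 no group overlapped another. Lrrn4, from the list of mesothelial and epithelial markers, fell as well (-2.98, adjusted p = 0.00992). Of the 2 tested genes of that list the other, Epcam, differed little (-0.05, adjusted p = 0.925). The list summed to 1.29 to 1.77 CPM in obesity-prone, 2.23 to 2.81 CPM in obesity-resistant and 2.89 to 8.78 CPM in control libraries. Most of the control sum was Lrrn4, which averaged 5.33 CPM there against 0.768 CPM for Epcam. The part of mesothelial and epithelial cells in the Cldn1 level was not tested. The other 7 tested genes of the nerve sheath list did not pass.

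Among the S100 family, 2 of 10 tested genes rose and 1 fell in obesity-prone against control, where 7% of all genes passed, and S100b was not among them. S100a1, a calcium-binding protein of muscle and other tissues, had 123, 121 and 98.1 CPM in obesity-prone, 147, 143 and 131 CPM in obesity-resistant and 217, 200, 201 and 152 CPM in control libraries. Both groups on the high-fat diet lay below every control, and the log2 fold change was -0.75 (adjusted p = 0.0196). S100a9, a calcium-binding protein of neutrophils and monocytes, averaged 1.47 ± 0.429 CPM in obesity-prone, 0.502 ± 0.112 CPM in obesity-resistant and 0.237 ± 0.0998 CPM in control mice (SD, n = 3, 3 and 4), with every obesity-prone library above every other and a log2 fold change of 2.61 in obesity-prone against control (adjusted p = 0.00924). S100a6, found in fibroblasts and glia, had 22.2, 13.7 and 49.5 CPM in obesity-prone, 9.09, 9.21 and 8.99 CPM in obesity-resistant and 7.41, 10.6, 6.81 and 14.9 CPM in control libraries. Obesity-prone library 3 was far above the others, and obesity-prone library 2 lay below control library 4, so these groups overlapped. The log2 fold change of S100a6 was 1.52 (adjusted p = 0.0479), and 0.85 without obesity-prone library 3.

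Transcripts of the axons themselves were scarce. Of 21 named neurone and axon genes 18 were in the table and 6 passed the filter, of which Syp and Stmn2 had the highest FPKM. In obesity-prone against control 0 of the 6 passed the test, where 7% of all genes did. Of their estimates 4 lay above 0 and 2 below, where 49.4% of all genes lay below 0. Tubb3 came nearest to the threshold, at 0.45 (adjusted p = 0.0580), with both groups on the high-fat diet above every control. Syp, a synaptic vesicle protein that other secretory cells also make, had 21.2, 24.0 and 20.7 CPM in obesity-prone, 25.9, 24.9 and 25.3 CPM in obesity-resistant and 21.3, 25.6, 27.3 and 23.0 CPM in control libraries, and the obesity-prone and control libraries overlapped (log2 fold change -0.14, adjusted p = 0.366). The vesicular monoamine transporter Slc18a2 and the noradrenaline transporter Slc6a2 summed to 25 and 24 counts over the 3 obesity-prone, 14 and 14 counts over the 3 obesity-resistant and 25 and 18 counts over the 4 control libraries, and neither passed the filter. They were therefore not tested. Of 9 tested genes of noradrenaline synthesis, storage, uptake and breakdown, Maoa, an enzyme that degrades noradrenaline in the mitochondria of many cell types, rose in obesity-prone against control. It had 21.2, 12.2 and 20.9 CPM in obesity-prone, 10.3, 9.96 and 10.9 CPM in obesity-resistant and 11.2, 11.4, 11.1 and 11.6 CPM in control libraries. Every obesity-prone library lay above the rest, library 2 by a small margin, with a log2 fold change of 0.68 (adjusted p = 0.0403). Among 17 tested axon guidance genes, Sema3f, a secreted repellent of sympathetic and other axons, rose, with 28.7, 22.9 and 29.1 CPM in obesity-prone, 24.8, 20.8 and 22.1 CPM in obesity-resistant and 9.36, 13.9, 9.15 and 18.3 CPM in control libraries (log2 fold change 1.08, adjusted p = 0.0259). All 6 libraries of mice on the high-fat diet lay above every control for Sema3f, and the other 16 genes did not pass. Beside the noradrenaline and axon guidance counts, 7% of all genes passed in obesity-prone against control.

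Most of these 12 calls in the pathway lists rested on the full set of libraries. Leaving out control library 1, 2 or 3 alone ended 11 of the 12 each time, all but that of S100a9, which held in every alternative (adjusted p 2.25e-07 to 0.0460). The calls lost were 8 without obesity-prone library 1, 6 without obesity-prone library 3, and 5, 7 and 4 without obesity-resistant libraries 1, 2 and 3. No call was lost without obesity-prone library 2 or control library 4, and all 12 held in DESeq2. Under other settings the calls lost were 11 with only the 2 groups compared, 6 with the skeletal muscle covariate, 5 with limma on FPKM and 3 with no filter. With obesity-prone library 3 and control library 4 both left out, 3 were lost (Maoa, Egr2 and Erbb3). The log2 fold changes kept their direction in all 22 alternatives, and with 1 library left out they ran from -0.80 to -0.61 for Erbb3, from -1.23 to -0.78 for Erbb4, from -0.855 to -0.556 for Ntf3 and from 0.96 to 1.39 for Jun.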

How the data were processed

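Brown adipose tissue RNA was measured in 10 libraries of 3 groups, taken from the labels. Per the labels' protocols, the authors aligned clean reads with Bowtie2 2.2.5 to a sequencing company's gene set that holds coding and noncoding transcripts and computed expression with RSEM 1.2.12. HISAT2 2.0.4 and the build GRCm38.p6 are named in the submitters' processing notes. The authors deposited an expected count per gene and library, not normalised, and an FPKM value per gene and library. Of the count values, 30.4% were not whole. The 6 columns of group means were not used. Strand setting, annotation release and batch are not given in the sources used here.

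Expected counts were rounded and fitted in edgeR 4.0.16 (R 4.3.3) with TMM factors, filterByExpr (minimum count 10) and the robust quasi-likelihood test over all 10 libraries, with 7 residual degrees of freedom and Benjamini-Hochberg adjustment over 19676 genes. CPM values use TMM-normalised library sizes. A gene is said to have changed at an adjusted p below 0.05. Of 25017 numeric identifiers, 24350 matched RefSeq, and 26 symbols that had turned into dates were restored from the identifier. The code was tested on simulated data. Correlations used log2 CPM (prior count 2) and 100000 permutations over 15 pairs, since 6 genes were found.

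The 6 genes are all named. From each of 7 pathway lists the genes that passed are named (at most 4 per list and comparison), otherwise the 2 highest by FPKM. Gfra3, Gdnf, Tubb3, Slc18a2 and Slc6a2, and the genes named from the cell type lists, were singled out after their values were seen. Some genes are not reported here and were taken out of the myelin list. The genes and lists were chosen with earlier results of these data known. No libraries of a group were duplicates by a chi-square test (lowest value per gene 22.7). Alternatives were RLE and upper-quartile factors, DESeq2 1.42.0, no filter, at least 1 CPM in 3 libraries, only the 2 groups compared, a replicate block, limma 3.58.1 on log2(FPKM + 0.5), + 0.1 and + 1, a skeletal muscle covariate, and each library left out. Leaving out obesity-prone library 3 together with control library 4 was added after seeing the data. Promoter stretches are RefSeq's.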

Additional observations from a re-analysis of the deposited data

Results flagged for a closer look

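Among 20 genes examined, the Mbp level of control library 1, at 54.0 CPM, lay far from the other 3 controls, the gap to the nearest being 0.938 of the group's whole range. Chance alone marks about 1 in 20 such groups. For 3 genes every obesity-prone library lay on one side of the control mean and every obesity-resistant library on the other. The obesity-prone against obesity-resistant log2 fold change was 0.80 for Maoa (adjusted p = 0.230), -0.21 for Syp (adjusted p = 0.372) and 1.65 for S100a6 (adjusted p = 0.230), so none of the 3 differences passed the test.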

How the results depend on the processing

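Of 396 recomputed fold changes of the 6 genes, 372 kept their direction and their side of the threshold, 3 newly passed it and 21 changed sign. In obesity-prone against control none changed sign, and the count of the 6 genes called was 1 in DESeq2, 1 with at least 1 CPM in 3 libraries, and 0 to 1 with each library left out. The sign changes in obesity-resistant against control were -0.047 (replicate block) and -0.0351 (obesity-prone library 3 and control library 4 both left out) for Cdh19, 0.0308, 0.0592 and 0.0175 (limma with 0.5, 0.1 and 1 added) for Sox10, and 0.012, 0.0165 and 0.00874 (the same 3) and 0.000411 (both libraries left out) for Ngfr. With each library left out, that comparison ran from -0.28 to 0.16 for Sox10, -0.18 to 0.064 for Ngfr, -0.0664 to 0.24 for Mbp and -0.12 to 0.13 for Cdh19. Obesity-prone against obesity-resistant ran from -0.0103 to 0.27 for Mbp and -0.00606 to 0.44 for S100b. The median of the 6 genes moved to -0.11 (limma, 1 added) in obesity-prone against control, and to -0.25 and -0.18 (limma, 0.5 and 1 added) in obesity-prone against obesity-resistant. A larger added constant shrinks fold changes of low genes. Left-out libraries gave medians of -0.44 to -0.21, -0.03 to 0.20 and -0.59 to -0.32 in the 3 comparisons.

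Counts over all genes moved more, and the cause was not tested. From 1377 in obesity-prone against control they came to 3111 (DESeq2), 66 (only the 2 groups), 627 (muscle covariate), 2635 (both libraries left out) and 76 to 3040 (each library left out). From 28 in obesity-resistant against control they came to 1142 (DESeq2), 76 (no filter), 68 (1 CPM in 3 libraries), 391 (only the 2 groups), 55 (muscle covariate), 2212 (both libraries left out) and 3 to 864 (each library left out). From 0 in obesity-prone against obesity-resistant they came to 567 (DESeq2) and 0 to 871 (each library left out). Of 9 same-numbered pairs of libraries across groups, 4 had a correlation of deviations over 0.1 (range -0.146 to 0.206). Differently numbered pairs were not set beside them, so whether the replicate numbers pair the libraries cannot be decided from these values. With the replicate block the counts were 1582 and 382 against control, 0 of the 6 genes passed, 4 of the 12 pathway calls were lost (Maoa, Gldn, Erbb3 and S100a6), and their median in obesity-prone against control was -0.37. No pair correlation passed on FPKM or with any library left out. Depth limits Ngfr and Sox10 most, at 57.6 and 87.8 counts per library.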

Other observations

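Both high-fat diet groups pooled against control, a contrast added after seeing the data, gave a log2 fold change of 0.59 ± 0.214 for S100b (adjusted p = 0.125) and -0.39 for Ngfr (adjusted p = 0.168). The values for Sox10, Cdh19, Mbp and Ncam1 were -0.30, -0.22, 0.14 and 0.06 (adjusted p = 0.498, 0.351, 0.571 and 0.801). In this contrast 6.15% of all genes were called at an adjusted p below 0.05 and 0 of the 6. S100b and Ngfr had an unadjusted p below 0.05, and the share of all genes at that p was not computed for this contrast. The pooled Ngfr value joins -0.74 in obesity-prone and -0.04 in obesity-resistant against control.

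Melanocyte markers, which share the neural crest origin of Schwann cells, summed to 23.4 to 26.02 CPM in obesity-prone, 19.6 to 23.8 CPM in obesity-resistant and 16.9 to 19.9 CPM in control libraries. Mitf, a transcription factor of melanocytes that other cells also make, was most of each sum, with group means of 18.16, 15.45 and 11.72 CPM. It rose in obesity-prone against control (log2 fold change 0.63, adjusted p = 0.0299). The pigment genes Tyr, Tyrp1, Dct and Pmel had log2 fold changes of 0.22, -0.03, -0.07 and -0.70 (adjusted p = 0.444, 0.923, 0.897 and 0.257). Of the 5 tested melanocyte markers, 2 estimates lay above 0 and 3 below in that comparison. Nerve sheath markers summed to 209 to 232 CPM in obesity-prone, 208 to 232 CPM in obesity-resistant and 202 to 241 CPM in control libraries. Most of that sum was Tjp1, with group means of 184, 180 and 175 CPM, so it says little about the other genes. In the same order Cldn1 averaged 1.60, 5.99 and 16.6 CPM. Of the 8 tested genes, 6 estimates lay above 0 and 2 below in obesity-prone against control, and only Cldn1 passed.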
